A study of Mus musculus with 11 samples.

Results

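The NADPH oxidases other than the dual oxidases were followed through 8 genes that encode their catalytic and associated subunits, of 43346 genes counted in mouse colon. The genes were chosen by name and role, with earlier results of these data known: Nox1, Noxo1 and Noxa1 of the epithelial oxidase, Cybb, Ncf1 and Ncf4 of the phagocyte oxidase, Cyba, which serves both, and Nox4. Colonic RNA came from 11 male Swiss Webster mice, 5 germ-free and 6 humanized, which were 8 to 10 weeks old and for which no genotype is given. All mice began life germ-free, and the humanized mice were gavaged with 300 μL of stool suspension from 1 human donor at 4 to 5 weeks of age. Colonic tissue, whose layers are not specified, was taken from animals housed singly in isolators, so the humanized group represents 1 donor community and the RNA represents a mixture of epithelial, immune, muscle and connective tissue cells.

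NADPH oxidases move electrons from NADPH across a membrane onto oxygen and so make superoxide or hydrogen peroxide. Nox1 is the main catalytic subunit of the colonic epithelium and works with an organizer (Noxo1) and an activator (Noxa1). Cybb, also named Nox2, is its counterpart in neutrophils and macrophages, where Ncf1 is the organizer and Ncf4 a lipid-binding adaptor, and loss of this complex leaves phagocytes unable to kill certain microbes in chronic granulomatous disease. Both catalytic subunits need the membrane partner encoded by Cyba and the small GTPase Rac. Nox4 needs the Cyba product but no organizer or activator, and is known from kidney, vessel wall and fibroblasts.

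The 3 epithelial subunit genes are shown by their promoters beside that of the phagocyte catalytic gene, because the former differed between the groups and the latter did not pass the test. The sequences are from RefSeq on GRCm38.p6 and give the 250 bases before the annotated start, 5′ to 3′ on the strand of the gene, at chrX:134111855-134112104 (Nox1, minus strand), chr17:24695984-24696233 (Noxo1, plus strand), chr2:25095206-25095455 (Noxa1, minus strand) and chrX:9469325-9469574 (Cybb, minus strand). RefSeq promoters were matched for 7 of the 8 genes, and the starts of Nox1 and Cybb lie inside the longer spans of these genes in the deposited table. Capitals mark matches to any of 6 motifs, each searched on both strands and spelled out with its values after the sequences.
Nox1: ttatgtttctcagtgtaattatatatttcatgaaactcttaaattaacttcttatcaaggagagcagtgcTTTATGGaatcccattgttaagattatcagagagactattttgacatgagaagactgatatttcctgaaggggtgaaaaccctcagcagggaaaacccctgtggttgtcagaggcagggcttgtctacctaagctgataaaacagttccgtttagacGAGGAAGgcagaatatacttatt
Noxo1: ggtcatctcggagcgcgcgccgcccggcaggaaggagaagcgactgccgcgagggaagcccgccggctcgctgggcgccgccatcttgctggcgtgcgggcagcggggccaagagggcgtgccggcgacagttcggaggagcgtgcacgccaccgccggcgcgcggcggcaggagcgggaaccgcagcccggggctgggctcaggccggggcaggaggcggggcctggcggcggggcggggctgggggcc
Noxa1: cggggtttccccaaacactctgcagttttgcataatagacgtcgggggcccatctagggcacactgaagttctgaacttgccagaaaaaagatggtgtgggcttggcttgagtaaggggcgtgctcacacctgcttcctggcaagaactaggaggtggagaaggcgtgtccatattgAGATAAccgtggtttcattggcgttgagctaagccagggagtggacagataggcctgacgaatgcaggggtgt
Cybb: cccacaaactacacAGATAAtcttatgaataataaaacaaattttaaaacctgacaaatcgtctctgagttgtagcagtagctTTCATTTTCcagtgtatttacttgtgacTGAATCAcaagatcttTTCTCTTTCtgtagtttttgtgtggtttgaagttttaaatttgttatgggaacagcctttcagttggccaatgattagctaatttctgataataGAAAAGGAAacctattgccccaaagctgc

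The Nox1 window held 1 match to the motif of CDX factors, which pattern the intestinal epithelium (TTTATNG), beginning 180 bases before the start. It also held 1 match at 23 bases to the motif of PU.1, a factor of myeloid cells (GAGGAAG). The Cybb window held 3 matches to the motif of the interferon regulatory factors, or IRF (GAAANNGAA), at 167, 123 and 29 bases. It held 1 match at 139 bases to the AP-1 motif, which many stimuli engage (TGANTCA), and 1 at 236 bases to the GATA motif (AGATAA). Noxa1 held 1 GATA match at 73 bases, and Noxo1 held none of the 6 motifs, the last of which was that of the STAT factors (TTCNNNGAA). Of 32851 promoter windows of the same length, the share with a match was 9.81% for CDX, 10.6% for PU.1, 7.13% for IRF, 6.75% for AP-1, 9.99% for GATA and 7.02% for STAT. The matches do not overlap each other in the windows shown. They describe letters and not bound sites. The windows also differed in base composition, with a GC content of 80.0% for Noxo1, 53.2% for Noxa1, 38.0% for Nox1 and 34.0% for Cybb, against a median of 52.4% over all windows.

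Transcript levels were measured by RNA-Seq and are given as RPKM, reads per kilobase of gene scaled to library size by TMM, and group values as mean ± SD (germ-free n = 5, humanized n = 6). Reads counted on genes numbered 49097005 to 64148538 per germ-free mouse, and the humanized libraries held 39125290 to 54219854. The log2-fold change (LFC) is positive where humanized mice were higher and is printed with its standard error, and a gene was called at a false discovery rate (FDR) below 0.01 in edgeR's exact test over all 19863 genes that passed the low-count filter. The tissue held the 11 markers of gut epithelium examined, among them Epcam at 753 ± 33.8 RPKM in germ-free and 777 RPKM in humanized mice. Humanized mouse 5 stood apart, with the lowest summed level of the macrophage, smooth muscle, fibroblast and endothelial marker lists and the highest of the epithelial list in its group. Several results are given with and without it, and others that may rest on it are given only with it. In bulk tissue fewer cells of a type and less RNA per cell cannot be told apart.

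All 8 genes passed the filter. Nox1, Noxo1, Noxa1 and Cyba were higher in humanized mice, Nox4 was lower, and Cybb, Ncf1 and Ncf4 were not called. Over all tested genes 9.2% were called higher and 10.1% lower, and the median LFC was 0.01 against 0.35 over the 8 genes. For 3 of the 8 genes all humanized mice lay above all germ-free mice, and for 1 they all lay below, where 8.67% and 9.73% of all tested genes separated the groups in these directions. Scaling by total counts without TMM turned the whole-table split of 1827 higher and 1999 lower genes into 773 and 3609, and moved the median LFC of all genes to −0.18.

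**Figure D1:**
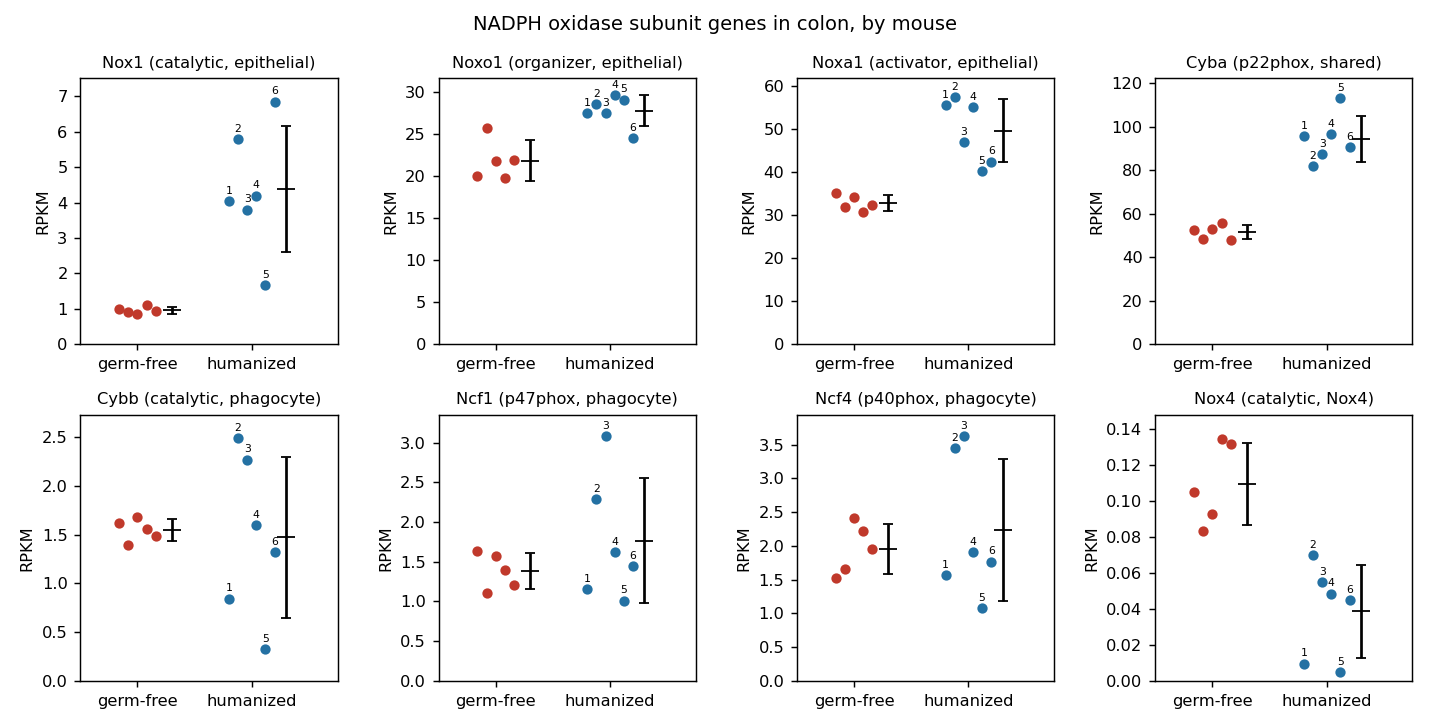
RPKM of the 8 genes in each of 5 germ-free mice (red) and 6 humanized mice (blue, numbered), with the mean and SD of each group in black, each panel on its own linear axis from 0. Nox1, Noxa1 and Cyba separate the groups upwards and Nox4 downwards, and the 3 phagocyte genes spread widely among the humanized mice.

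Nox1 showed the largest LFC of the 8 genes. Its RPKM was 0.988, 0.913, 0.853, 1.11 and 0.926 in the germ-free mice and 4.05, 5.79, 3.80, 4.20, 1.67 and 6.85 in the humanized mice. Every humanized mouse lay above every germ-free mouse, with mouse 5 the lowest and mouse 6 the highest of its group. Means were 0.959 ± 0.0991 and 4.39 ± 1.78 RPKM, an LFC of 2.20 ± 0.28 (SE, FDR = 2.854e-11), and the LFC without humanized mouse 5 was 2.36 (FDR = 3.51e-30). The coefficient of variation rose from 10.3% to 40.6%, where the median over all tested genes was 10.4% in germ-free and 16.5% in humanized mice. Nox1 lies on chromosome X (mm10, 134086421 to 134221956), and 12.1% of its exonic bases are shared with Cstf2, a polyadenylation factor gene on the opposite strand. Cstf2 had an LFC of −0.05 (FDR = 0.692). Its means of 6.41 RPKM in germ-free and 6.18 RPKM in humanized mice were above those of Nox1. How reads of the shared bases were counted is not stated, and the part of Cstf2 in the Nox1 value was not tested.

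Noxa1, the activator, was the next of the 3 epithelial subunits. It stood at 35.1, 31.9, 34.2, 30.7 and 32.4 RPKM in germ-free mice and at 55.6, 57.5, 47.1, 55.2, 40.3 and 42.5 RPKM in humanized mice. The groups did not overlap, and humanized mice 5 and 6 were nearest to the germ-free mice. The LFC was 0.60 ± 0.10 (SE, FDR = 6.188e-07). Scaled so that 11 epithelial marker genes were level between the groups, it was 0.36 and no longer called (FDR = 0.0743). That scaling moved the median LFC of all genes to −0.23. A change of scaling shifts all genes by about the same amount. The 0.59 by which Noxa1 stood above the median gene under either scaling is therefore nearly fixed and no test of the call. Noxa1 is at chromosome 2, 25085667 to 25095149, on mm10.

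Noxo1, the organizer, had the smallest called difference. It measured 19.97, 25.8, 21.9, 19.8 and 21.9 RPKM in germ-free mice and 27.6, 28.6, 27.5, 29.6, 29.1 and 24.5 RPKM in humanized mice. The groups overlapped, since germ-free mouse 2 exceeded humanized mouse 6. The LFC of 0.35 ± 0.07 (SE, FDR = 5.969e-04) fell to 0.16 with total counts (FDR = 0.171) and to 0.11 with epithelial marker scaling (FDR = 0.506), neither of which was called. In the same 2 scalings Noxo1 stood 0.34 and 0.35 above the median gene, a distance that scaling leaves nearly fixed and that is no test of the call. Noxo1 (chromosome 17, 24696234 to 24700529, mm10) shares 2122 exonic bases, 70.4% of its total, with Tbl3, a ribosome biogenesis gene on the opposite strand. The library kit did not mark strand, so reads of the shared bases cannot be told apart, and how they were counted is not stated. Tbl3 itself was called higher with an LFC of 0.32 ± 0.07 (SE, FDR = 7.433e-04). The part of Tbl3 in the Noxo1 value was not tested.

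Cyba, the membrane partner common to Nox1, Cybb and Nox4, was the most abundant of the 8 genes, at percentile 97.0 of mean RPKM in humanized mice. Its level was 52.6, 48.5, 53.1, 55.6 and 47.9 RPKM in germ-free mice and 95.5, 82.0, 87.4, 96.5, 113 and 90.7 RPKM in humanized mice. The lowest humanized mouse lay well above the highest germ-free mouse, and mouse 5, lowest for Nox1, was highest for Cyba. The LFC was 0.87 ± 0.08 (SE, FDR = 6.207e-19), and it stayed between 0.61 and 0.90 and was called in all 23 alternatives. Cyba lies on chromosome 8 (mm10, 122424772 to 122432940). Its RPKM rests on the deposited length of 758 bases, and the 1039 exonic bases of the GENCODE M21 model would give lower RPKM values by the same factor in both groups.

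The 3 phagocyte subunit genes were not called. Cybb, the catalytic subunit, was at 1.62, 1.40, 1.68, 1.56 and 1.49 RPKM in germ-free mice and at 0.844, 2.49, 2.27, 1.60, 0.326 and 1.32 RPKM in humanized mice. The germ-free mice lay close together, while humanized mice 2 and 3 were above all of them and mice 1, 5 and 6 below all of them. The means of 1.55 ± 0.110 and 1.47 ± 0.827 RPKM gave an LFC of −0.07 ± 0.38 (SE, FDR = 0.919), with a 95% interval from −0.81 to 0.67. Without humanized mouse 5 the LFC was 0.14 (FDR = 0.738), without humanized mouse 1 it was 0.05 and without humanized mouse 2 it was −0.29, and none of these was called. The interval does not show that Cybb was alike in both groups, because differences as large as those called for Noxa1 lie inside it. Cybb is at chromosome X, 9435252 to 9487771, on mm10.

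Ncf1, the phagocyte organizer, was at 1.64, 1.10, 1.58, 1.39 and 1.21 RPKM in germ-free mice and at 1.15, 2.29, 3.08, 1.62, 1.01 and 1.45 RPKM in humanized mice. Ncf4, the adaptor, was at 1.52, 1.66, 2.41, 2.22 and 1.95 RPKM in germ-free mice and at 1.56, 3.45, 3.62, 1.91, 1.08 and 1.77 RPKM in humanized mice. For both genes the groups overlapped, with humanized mice 2 and 3 above every germ-free mouse and mouse 5 below every one. The LFC was 0.35 ± 0.26 for Ncf1 (SE, FDR = 0.393, 95% interval −0.16 to 0.87). For Ncf4 it was 0.19 ± 0.29 (SE, FDR = 0.707, 95% interval −0.38 to 0.76). Without humanized mouse 3 the LFC of Ncf1 was 0.12 and that of Ncf4 −0.0015, and without mouse 5 they were 0.47 and 0.33. The Ncf4 value was also 0.02 without humanized mouse 2 and 0.11 without germ-free mouse 1, and neither gene was called in any of these. Ncf1 lies on chromosome 5 (mm10, 134220053 to 134229625) and shares 11.1% of its exonic bases with Gtf2ird2 on the opposite strand, and Ncf4 lies on chromosome 15 (mm10, 78244801 to 78262580).

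Nox4 was barely detected and lower in humanized mice. It was counted 56, 37, 46, 71 and 78 times in the germ-free mice and 3, 22, 22, 16, 2 and 19 times in the humanized mice. The groups did not overlap, and humanized mice 1 and 5 held 3 and 2 reads. At 0.109 ± 0.0228 and 0.0388 ± 0.0259 RPKM the LFC was −1.49 ± 0.46 (SE, FDR = 0.00679). The call did not hold in edgeR's quasi-likelihood test (FDR = 0.0290), nor when any germ-free mouse or humanized mouse 1, 4 or 6 was left out (FDR = 0.0108 to 0.0279). It held without humanized mouse 5, with an LFC of −1.26 (FDR = 0.00172). Nox4 spans chromosome 7, 87246096 to 87398710, on mm10, and at percentile 1.30 was the least abundant of the 8 genes.

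The order of levels differed between the groups in the place of Nox1. In germ-free mice Cyba, Noxa1 and Noxo1 stood apart from each other and from the rest, and Nox1 (0.853 to 1.11 RPKM) was below Ncf4 and Cybb, with a range that just met that of Ncf1 (1.10 to 1.64 RPKM). In humanized mice the mean of Nox1 was above those of Ncf4, Ncf1 and Cybb, although its range of 1.67 to 6.85 RPKM overlapped those of Ncf4 (1.08 to 3.62 RPKM), Ncf1 (1.01 to 3.08 RPKM) and Cybb (0.326 to 2.49 RPKM). The ranges of Ncf4, Ncf1 and Cybb overlapped in both groups. Relative to its organizer, Nox1 was 4.45 ± 0.832% of the Noxo1 RPKM when germ-free and 16.1 ± 7.41% when humanized, with no overlap between the groups. Relative to its activator it was 2.93 ± 0.417% and 8.89 ± 4.03% of the Noxa1 RPKM, again without overlap. Relative to Cyba it was 1.86 ± 0.151% and 4.84 ± 2.21%, and here humanized mouse 5 at 1.48% fell below every germ-free mouse.

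Ratios of counterparts within a mouse do not depend on how libraries are scaled, and were compared by a two-sided exact permutation test over the mice. Values of p were adjusted over 4 ratios, of which 3 are given. Nox1 was 50.8% to 71.5% of the Cybb RPKM in germ-free mice but 167% to 518% of it in humanized mice, so the balance of the catalytic subunits differed without overlap. The log2 ratio was 2.42 higher in humanized mice (exact permutation p = 0.00216, the smallest that 5 against 6 mice allow, adjusted p = 0.00866). The organizers did not pass the test, with a log2 Noxo1/Ncf1 ratio of 3.99 ± 0.374 and 4.08 ± 0.615 (exact permutation p = 0.775, adjusted p = 0.775). Reads of Tbl3 and Gtf2ird2, which share exonic bases with Noxo1 and Ncf1, may enter this ratio and the other results of these genes. Their part was not tested.

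**Figure D2:**
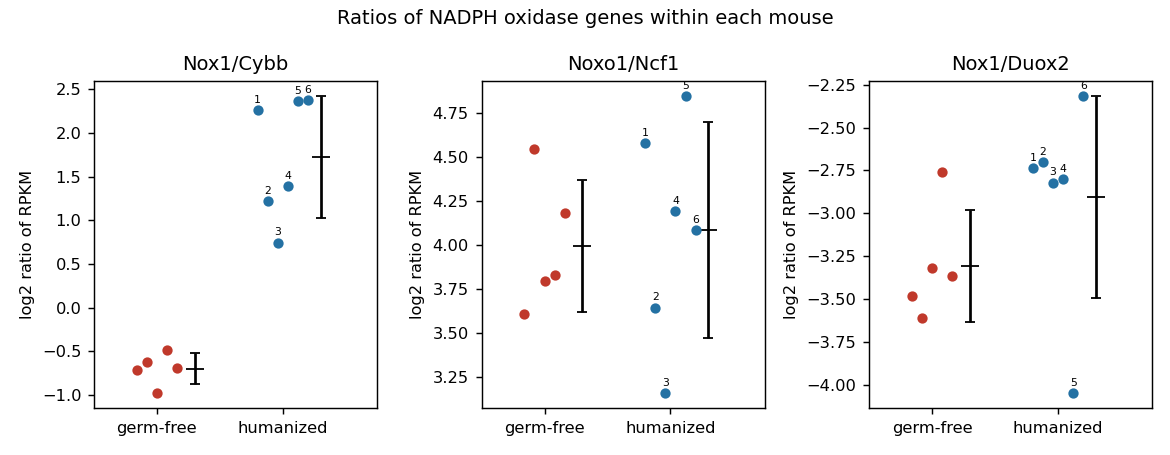
Log2 ratios of RPKM within each mouse for the catalytic (Nox1/Cybb) and organizer (Noxo1/Ncf1) counterparts and for Nox1/Duox2, in 5 germ-free (red) and 6 humanized mice (blue, numbered), with mean and SD in black. Only Nox1/Cybb of the 3 ratios separates the groups, and humanized mouse 5 is the lowest of its group for Nox1/Duox2.

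The dual oxidases, which release hydrogen peroxide from gut epithelium, provided a comparison. All 4 of their genes were called higher, with LFC values of 1.55 for Duox1, 1.67 for Duox2, 3.32 for Duoxa1 and 3.60 for Duoxa2. The log2 Nox1/Duox2 ratio was 0.40 higher in humanized mice, within the spread of the mice (exact permutation p = 0.203, adjusted p = 0.271), and 0.63 higher without humanized mouse 5 (exact permutation, adjusted p = 0.0317).

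Of 27 partner and regulator genes of these complexes 26 were tested, 3 were called higher and 2 lower, with a median LFC of 0.12. That is 3 of 26 against 9.2% of all genes higher and 2 of 26 against 10.1% lower. The higher count was 0 with total counts and with epithelial marker scaling, 1 without germ-free mouse 1 or 3 or humanized mouse 2, and 5 without humanized mouse 5, and the lower count was 1 without germ-free mouse 1 or 4. Nox3, the oxidase of the inner ear, had no read in any mouse. The higher genes were P4hb, the protein disulfide isomerase reported to bind Nox complexes (LFC 0.36, FDR = 2.94e-04), Rap1a, a GTPase that copurifies with the phagocyte oxidase (LFC 0.33, FDR = 0.00219), and Cdc42, a Rac-related GTPase (LFC 0.32, FDR = 0.00211). The lower genes were Sh3pxd2a and Sh3pxd2b, scaffold proteins related to the organizers, with LFC values of −0.65 (FDR = 2.38e-04) and −0.40 (FDR = 0.00146). The GTPases of the oxidases missed the threshold, with an LFC of 0.28 for Rac1 (FDR = 0.0122) and of 0.59 for the hematopoietic Rac2 (FDR = 0.0325). BC017643, the chaperone of the Cybb and Cyba products also named Cybc1, had an LFC of 0.02 (FDR = 0.870).

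**Figure D3:**
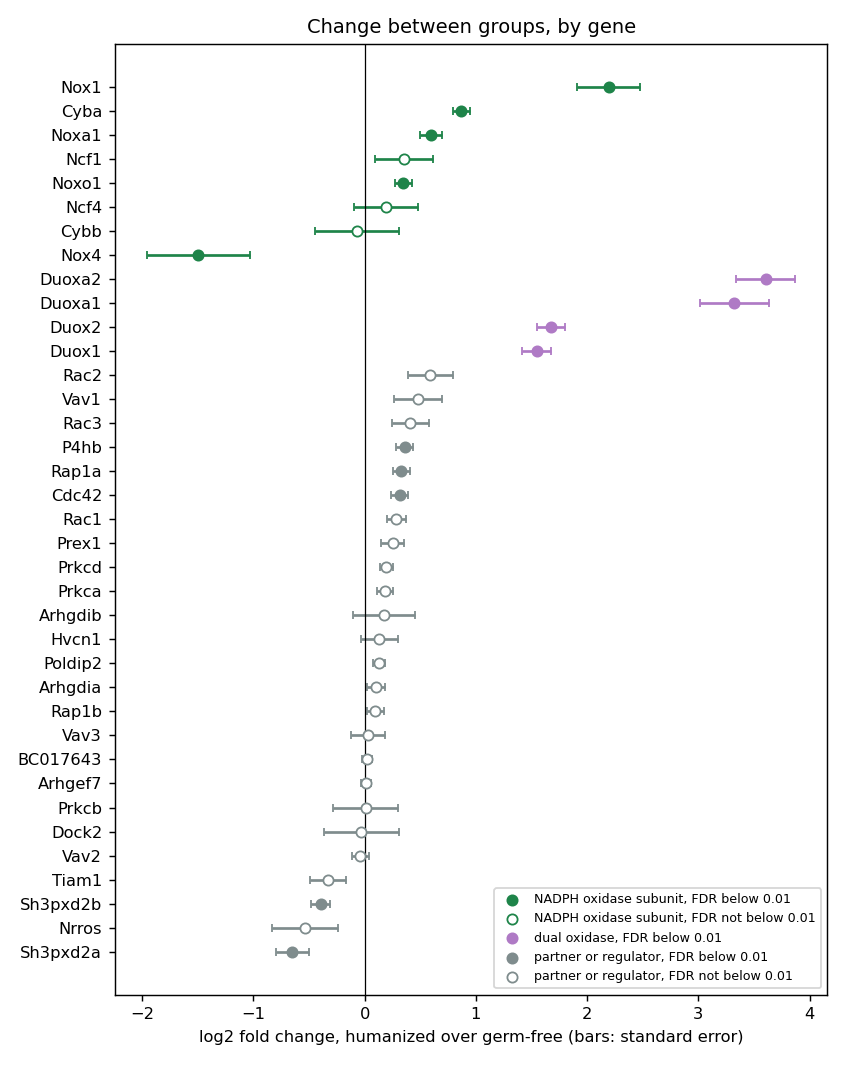
LFC of humanized over germ-free mice (horizontal axis, log2) with its standard error for the 8 genes (green), 4 dual oxidase genes (purple) and tested partner and regulator genes (grey), where filled points have FDR below 0.01. Nox1 stands at 2.20 and Nox4 at −1.49, and the partner genes lie between −0.65 and 0.59.

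Each gene was also set against markers of 1 cell class: epithelial cells for the Nox1 complex and Cyba, macrophages for the phagocyte genes and smooth muscle for Nox4. Of the 11 epithelial markers Krt18, Lgals4 and Hnf4a were called higher, and the median LFC of the list was 0.21. Per geometric mean of these markers, log2 Nox1 was 1.84 higher in humanized mice (exact permutation p = 0.00433, adjusted over 8 genes p = 0.0115) and log2 Cyba 0.63 higher (exact permutation p = 0.00216, adjusted p = 0.00866). The differences of Noxa1 (0.35) and Noxo1 (0.11) did not pass the same exact permutation test (adjusted p = 0.114 and 0.359), and without humanized mouse 5 that of Noxa1 was 0.44 (adjusted p = 0.0381). Of 8 crypt and proliferation markers, the 4 of stem cells and Wnt signalling were called lower, at LFC values of −0.70 for Lgr5, −1.09 for Ascl2, −0.38 for Axin2 and −0.69 for Smoc2. The 4 proliferation markers Mki67, Top2a, Pcna and Birc5 were not called, at 0.05 to 0.16. The median LFC of these 8 markers was −0.16. Measured per level of this list, the Noxa1 and Noxo1 differences were larger than per epithelial marker level, so that they depend on the reference list. Of 8 mature colonocyte markers Car1, Aqp8 and Ceacam1 were called higher, and the others lay between −0.28 for Guca2a and 1.13 for Slc26a3. Their part in the Nox1 and Cyba differences was not tested.

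Macrophage markers spread among humanized mice as the phagocyte oxidase genes did. Of 12 markers, Cd14 was called higher (LFC 0.70), Mrc1 lower (LFC −1.18) and 10 were not called. Their summed level was 170 to 207 RPKM in germ-free mice and went from 114 in mouse 5 to 310 in mouse 3 among humanized mice. Lyz2 and Cd14 carried much of this sum, with Cd14 at 72.8 RPKM of the 114 in mouse 5 and Lyz2 at 169 RPKM of the 310 in mouse 3. The other 10 markers summed to 65.3 to 87.1 RPKM in germ-free mice and, again from mouse 5 to mouse 3, 16.8 to 89.7 RPKM in humanized mice. Per macrophage marker level, log2 Ncf1 was 0.77 higher in humanized mice (exact permutation, adjusted p = 0.00866) and log2 Ncf4 0.59 higher (adjusted p = 0.0260), while Cybb differed by 0.17 (adjusted p = 0.359). Humanized mouse 5 had the highest Ncf1 and Ncf4 values of its group on this measure, at −0.94 and −0.84, and these differences include it. Against 6 markers of all leukocytes these differences became 0.19 for Ncf1 and 0.01 for Ncf4, neither past the exact permutation test (adjusted p = 0.147 and 0.900), and −0.41 for Cybb (adjusted p = 0.0416), so that they depend on the reference cells. Humanized mouse 5 had by far the lowest Cybb of its group per leukocyte marker level, so the −0.41 leans on it. T cell and plasma cell markers were called higher in 6 of 8 and 5 of 6 cases, and the 6 leukocyte markers had LFC values between −0.13 and 0.50. Of the B cell markers 1 of 8 was called higher (median LFC 1.23), and of the dendritic cell markers 1 of 6 was called lower (median LFC −0.38). The summed B cell, dendritic cell and granulocyte markers, like the macrophage sum, were lowest in humanized mouse 5 and highest in humanized mouse 3 of their group, and their part in the Cybb, Ncf1 and Ncf4 values was not tested. Granulocyte markers were low, and Elane was at 0 in every mouse and S100a8 and Ly6g in all germ-free mice. Retnlg was at 0.269 to 1.70 RPKM over all mice, Csf3r at 0.117 to 0.912 RPKM, and S100a9 at up to 0.304 RPKM in germ-free and 1.37 RPKM in humanized mice. The summed level of the 8 granulocyte markers went from 1.19 to 1.99 RPKM in germ-free and from 0.857 to 4.54 RPKM in humanized mice.

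Among the 6 humanized mice 8 relations were computed on log2 RPKM by exact permutation, with p-values adjusted over the 8. Cybb followed the mean of the macrophage markers with a Pearson r of 0.990 (adjusted p = 0.00741) and a Spearman rho of 0.943 (adjusted p = 0.0333), and r was 0.995 without mice 3 and 5. Other marker lists moved with Cybb too, in 5 relations added after the data were seen and adjusted together. By exact permutation r was 0.968 for the 6 leukocyte markers (adjusted p = 0.0139, rho = 0.943), 0.942 for the fibroblast markers (adjusted p = 0.0174, rho = 0.829) and 0.943 for the endothelial markers (adjusted p = 0.0174, rho = 0.657). The rho of the fibroblast and endothelial markers did not pass (exact permutation, adjusted p = 0.0972 and 0.219). The epithelial markers ran the other way, with r = −0.885 (exact permutation, adjusted p = 0.0174, rho = −0.943), and the smooth muscle markers gave r = 0.623 (adjusted p = 0.201, rho = 0.429). Without the 2 farthest mice r was 0.996, 0.789, 0.238, −0.872 and 0.596 in the same order, so that the endothelial relation rests on mice 1 and 5. The part of the mixture of cells in the Cybb values was not tested. The phagocyte subunits followed one another. Pearson r was 0.873 for Cybb and Ncf1 (exact permutation, adjusted p = 0.0417, rho = 0.943), 0.922 for Cybb and Ncf4 (adjusted p = 0.00741, rho = 0.943) and 0.969 for Ncf1 and Ncf4 (adjusted p = 0.00741, rho = 1.0). Leaving out the 2 mice farthest from the median gave 0.875, 0.967 and 0.959. The epithelial subunits did not pass the same exact permutation tests, with r = −0.572 for Nox1 and Noxo1 (adjusted p = 0.341, rho = −0.314), 0.435 for Nox1 and Noxa1 (adjusted p = 0.484, rho = 0.371) and 0.391 for Noxo1 and Noxa1 (adjusted p = 0.493, rho = 0.143). Without the 2 farthest mice r became 0.347, 0.676 and −0.435 in the same order, so that 2 of these relations changed sign.

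**Figure D4:**
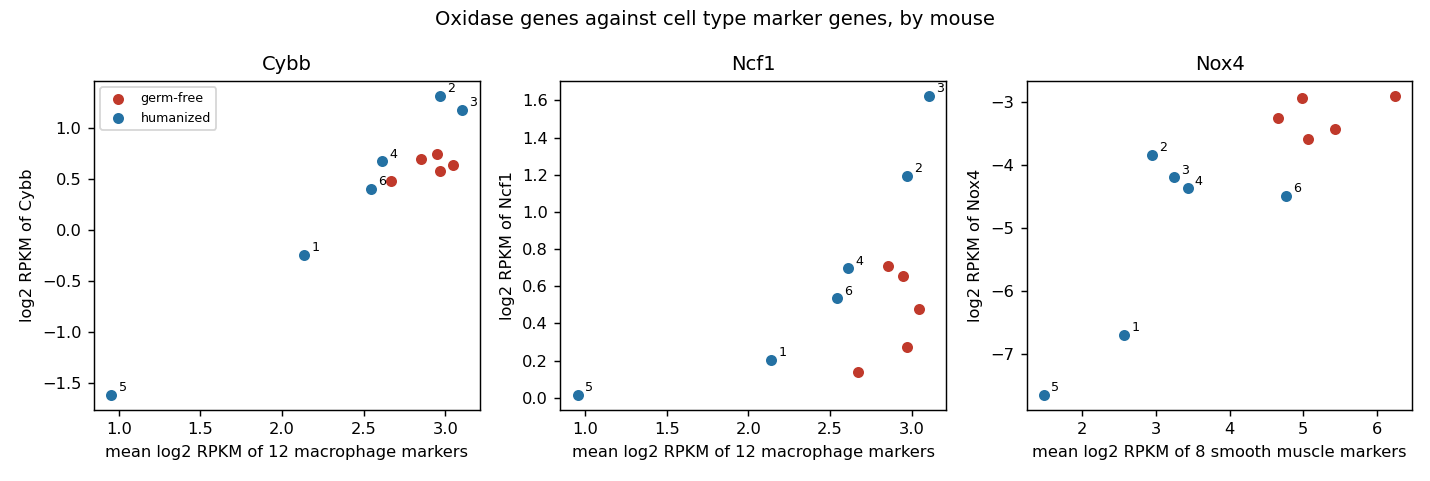
Log2 RPKM of Cybb, Ncf1 and Nox4 (vertical axes) against the mean log2 RPKM of 12 macrophage or 8 smooth muscle markers (horizontal axes) in germ-free mice (red) and humanized mice (blue, numbered). Cybb rises with the macrophage markers in the humanized mice (r = 0.990), and humanized mouse 5 lies lowest on both axes of each panel.

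Stromal markers, like Nox4, were lower in humanized mice. All 8 smooth muscle markers were called lower, with a median LFC of −2.03, as were 6 of 8 fibroblast markers, with a median LFC of −1.37. The 8 endothelial markers had LFC values from −1.28 to −0.61 and missed the threshold, with FDR from 0.0134 to 0.323. Summed smooth muscle markers ranged from 314 to 937 RPKM in germ-free mice and from 40.4 to 329 RPKM in humanized mice. Per smooth muscle marker level Nox4 did not pass the test, with a log2 difference of 0.22 (exact permutation p = 0.699, adjusted p = 0.699), nor per fibroblast marker level, with −0.51 (exact permutation p = 0.286, adjusted p = 0.327). The first of these was −0.08 without humanized mouse 2, 0.05 without germ-free mouse 4 or humanized mouse 3, 0.12 without germ-free mouse 3 or humanized mouse 4, and 0.36 to 0.41 without germ-free mouse 1 or 5 or humanized mouse 1, 5 or 6, and it passed in none of these. The fibroblast comparison was not repeated with mice left out, and its lowest value was that of humanized mouse 1, which held 3 Nox4 reads. Among the humanized mice r between Nox4 and these markers was 0.728 (exact permutation, adjusted p = 0.16, rho = 0.429), and 0.748 without mice 5 and 6.

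The genes whose mouse-to-mouse deviations from their group means were most like those of a subunit gene were sought over 11 mice and 12343 genes with a mean of at least 5 CPM (counts scaled to library size). For Nox1 these were Clca2, with r = 0.962, Gbp2 (0.936) and Iigp1 (0.928), both interferon-inducible GTPases, Hif1a (0.921), the oxygen-sensing transcription factor, and Klhl23 (0.921). Of these only Klhl23 was called between the groups, with an LFC of −1.38. For Cybb they were Ccr2 (0.990), Ppic (0.988), Calcrl (0.988), Plekhh2 (0.985) and Arhgef6 (0.984), of which Calcrl (LFC −1.16) and Plekhh2 (LFC −1.15) were called lower. For Noxo1 the overlapping gene Tbl3 came first (0.922), followed by Il1rn (0.840), Tm9sf1 (0.829), Ppt2 (0.826) and Pex11g (0.813), of which Tbl3, Tm9sf1 and Pex11g were called higher. These values are descriptions, since the levels of all genes in a mouse come from 1 library. Nox1 and Cybb were lowest in humanized mouse 5 within its group, and the search was not repeated without that mouse.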

How the data were processed

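Colonic RNA of 5 germ-free and 6 humanized mice was sequenced on an Illumina instrument with a TruSeq v2 kit that does not mark strand. Paired-end reads of 101 bp were aligned by the authors to mm10 with TopHat2 2.1.0 and Bowtie2 2.2.3, counted per gene with featureCounts (Subread 1.4.6-p5), and deposited by them as raw counts of 43346 genes with a length per gene. The strand setting and annotation release are not given in the sources used here. For 6 of the 8 genes the length equals the exonic bases of GENCODE M21, and shared exons were computed from that annotation on GRCm38.

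The main comparison followed the study's methods in R 4.3.3 with edgeR 4.0.16: genes were kept by filterByExpr (19863 genes, with a default minimum count of 10 and total of 15), scaled by TMM and compared by exact test, with Benjamini–Hochberg FDR below 0.01 as the threshold. The quoted standard errors and 95% intervals came from edgeR's quasi-likelihood fit. RPKM used TMM libraries and the deposited lengths. Ratios, values per marker level (log2 of a gene's RPKM over the geometric mean of a marker list) and relations among the humanized mice were tested by two-sided exact permutation over mice at 0.05, where 5 mice against 6 allow no p under 0.00216. Deviations were correlated on log2 CPM (prior count 2). The fits were tested on simulated data.

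The 8 genes and all lists were chosen with earlier results of these data known. Named in the text are all 8 genes, the called partner and regulator genes with Rac1 and Rac2, the 4 dual oxidase genes, markers beside a result, and the 5 genes closest to Nox1, Noxo1 and Cybb in their deviations. BC017643 and Nox3 were named after their values were seen, as were single genes of the marker lists and the genes that overlap the 8 genes. Alternatives were the quasi-likelihood test, DESeq2 1.42.0, other scalings, filters and thresholds, leaving out each mouse, a replicate block, another marker list and a pseudocount of 0.1 RPKM. The quasi-likelihood test without humanized mouse 5, the levels of Nox1 as a percent of its partners, the relations of Cybb with further marker lists and the macrophage sum without Cd14 and Lyz2 were added after the data were seen. Mice of a group differed by more than counting error, with a mean chi-square per gene of at least 21.6, and none was counted as a duplicate. No batch is named in the labels or methods, so no comparison within batches was made. All mice entered the main comparison. The results of 1 gene are not reported here.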

Additional observations from a re-analysis of the deposited data

How the results depend on the processing

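Nox1 (LFC 1.92 to 2.36) and Cyba (0.61 to 0.90) were called in all 23 alternatives, and Cybb, Ncf1 and Ncf4 in none. Noxa1 was not called with epithelial marker scaling, and Noxo1 was not called there, with total counts or with the replicate block (LFC 0.38, FDR = 0.0128). Of the 8 genes, 2 were then called higher with epithelial scaling, in place of 4. Nox4 was called in 10 of 22 alternatives (LFC −1.77 to −1.26). The count of genes called lower was therefore 0 with the quasi-likelihood test, with and without humanized mouse 5, and with at least 10 counts in every mouse, where Nox4 could not be tested, and it was 0 to 1 when mice were left out in turn. Among the partner and regulator genes the higher count of 3 became 0 with total counts and with epithelial scaling, 6 at FDR below 0.05 and 1 in the quasi-likelihood test without humanized mouse 5, and the cause was not tested. Leaving out 1 mouse gave 1 to 5 higher, with 1 without germ-free mouse 1 or 3 or humanized mouse 2 and 5 without humanized mouse 5, and 1 to 2 lower, with 1 without germ-free mouse 1 or 4. The log2 Nox1/Duox2 difference ranged from 0.29 to 0.63 when mice were left out, and passed only without humanized mouse 5. The log2 difference of Cybb per marker level was 0.17 against macrophage markers and −0.41 against all-leukocyte markers. Both move with single mice. Per macrophage marker level the humanized mice ran from −2.57 in mouse 5 to −1.65 in mouse 2, and the −0.41 leans on humanized mouse 5.

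Mice with the same number were different animals and did not deviate together (r from −0.13 to 0.09 over the 5 numbers). With the replicate block, 0 of the 8 genes were lower, and 0 partner genes were called in either direction. The same 10 mice in the quasi-likelihood test without the block gave 0 lower of the 8 genes and, of the partner genes, 1 higher and 0 lower. Over all genes the block left 501 higher and 501 lower, against 1032 and 1046 without it. Other counts over all genes that moved by over 1.5 times from 1827 higher and 1999 lower were 1298 lower in the quasi-likelihood test, 2780 higher at FDR below 0.05, 773 and 3609 with total counts, and 521 higher with epithelial scaling. Nox4 was counted only 2 to 22 times per humanized mouse.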
